A study of Mus musculus with 18 samples.

Results

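The genes of iron uptake, iron export and hepcidin were examined in livers and small intestines of young mice that had received gut microbiota from old or from young donors. The set holds 10 genes of the 22180 that the array names by a single symbol: the hepcidin genes Hamp and Hamp2, the transferrin receptors Tfrc and Tfr2, the transporters Slc40a1, Slc11a2, Slc46a1 and Flvcr1, the ferroxidase Heph and the ferric reductase Cybrd1. Its probe sets were chosen by gene symbol, and the genes were selected on differences between the donor groups already seen in these arrays. Those differences are therefore given below as a description, without p-values for the 10 genes. Each gene was read by 1 probe set. For Flvcr1 1 further probe set carried several symbols and was left out.

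OMT recipients were germ-free C57BL/6 mice, raised without microbes, that received microbiota of donors about 24 months old. YMT recipients were germ-free C57BL/6 mice given microbiota of young donors, whose age is 4 weeks in the treatment protocol and 5 to 6 weeks in the design text. Recipients were 5 to 6 weeks old at the transfer and were followed for 8 weeks, and the labels give 12 or 13 weeks as the age at sampling. Each tissue was measured in 5 OMT and 4 YMT recipients, with 1 Affymetrix array per sample and 18 arrays in all. The number of donors and cages behind each group was not used here, so a donor or cage effect cannot be told apart from donor age. Whether the liver and the intestine of a given number came from the same animal is not stated in the labels.

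Hepcidin is a peptide hormone that hepatocytes release when iron stores or inflammatory signals rise. It binds ferroportin, the only known cellular iron exporter, encoded by Slc40a1, and causes its loss from enterocytes and macrophages, so that less iron enters the blood. In the intestine, dietary iron is reduced by the product of Cybrd1, taken up through the product of Slc11a2 (DMT1), and oxidised by hephaestin (Heph) as it leaves through ferroportin. Other cells take up transferrin-bound iron through transferrin receptor 1 (Tfrc), whose messenger RNA is stabilised by iron regulatory proteins when iron is low.

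Mice carry a pair of hepcidin genes, and only Hamp is known as the iron-regulating hormone. Overexpressed Hamp2 did not lower iron in mice. The bases before the starts of both genes are shown because their levels in liver, given below, did not move together. The sequences are from RefSeq, build GRCm38.p6, both on the minus strand, printed 5′ to 3′, with the start of the transcript after the last base. Capitals mark matches to GGCGCC, the core of BMP-responsive elements, and to TTCNNNGAA, the pattern bound by STAT factors. The Hamp window lies at chr7:30944030-30944279 and the Hamp2 window at chr7:30924182-30924431.
Hamp: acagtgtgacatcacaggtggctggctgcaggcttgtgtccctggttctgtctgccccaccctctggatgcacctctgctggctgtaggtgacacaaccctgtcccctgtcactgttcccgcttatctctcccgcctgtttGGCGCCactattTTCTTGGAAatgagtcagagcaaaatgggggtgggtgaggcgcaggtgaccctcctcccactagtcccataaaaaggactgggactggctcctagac
Hamp2: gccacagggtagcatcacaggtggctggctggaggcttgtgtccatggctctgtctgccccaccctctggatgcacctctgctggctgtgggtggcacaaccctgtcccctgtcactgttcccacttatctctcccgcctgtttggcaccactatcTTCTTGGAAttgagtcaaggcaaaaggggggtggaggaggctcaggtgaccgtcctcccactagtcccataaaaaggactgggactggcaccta

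Of 247 aligned bases, 227 (91.9%) were identical and 20 differed, and the genes lie 18.2 kb apart. TTCNNNGAA was found in both windows, beginning at -97 for Hamp and at -94 for Hamp2, counted from the transcript start. GGCGCC was found for Hamp at -109 and its letters are not in the Hamp2 window. Both patterns read the same on either strand and do not overlap each other. Promoter windows were given for 7 of the 10 genes. Among 32851 promoters of the same length, 9.59% held GGCGCC, as did those of Hamp, Tfrc and Cybrd1, and 7.02% held TTCNNNGAA, as did those of Hamp and Hamp2. The hypoxia motif core ACGTG, searched on both strands, was present in 16.6% of them and in windows of Tfrc and Tfr2. These matches describe the letters only. The likeness given is of the bases before the genes, not of their transcripts. Whether some signal of Hamp or Hamp2 is read by the probe set of the other was not tested.

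Values are levels on the log2 scale, in which 1 unit is a doubling, and levels of different genes are not set against each other. Genes were tested where their level was above the array's median on 4 or more arrays of the fit. It is called where the adjusted p of limma, with Benjamini-Hochberg adjustment over all genes tested, was under 0.05. Array medians lay between 4.12 and 4.22 in liver and between 4.39 and 4.51 in intestine. The tissue labels held, with albumin (Alb) at 13.21 to 13.26 on liver arrays and villin (Vil1) at 11.97 to 12.27 on intestine arrays. The intestinal segment is not stated. On intestine arrays the ileal bile acid binding protein Fabp6 was at 11.94 to 12.90, while the duodenal factor Pdx1, at 4.58 to 4.98, stayed near the array medians.

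The 10 genes divided evenly between the tissues. Hamp, Hamp2, Tfr2, Slc40a1 and Slc46a1 were higher in liver, and Heph, Flvcr1, Tfrc, Slc11a2 and Cybrd1 were higher in intestine, all 10 past the threshold. For Hamp, Hamp2 and Tfr2 that call is only a description, since they passed the level filter through the liver arrays alone. Of 14747 genes tested for liver minus intestine, 25.9% were called higher and 56.3% lower, so a call is common in this comparison. Here each gene is compared between tissues only, a measure that did not enter the choice of the genes. Whether both tissues were normalised together by the authors is not stated, and the median difference over all genes was -0.28. It was 0.00 after centring every array on its median, and all 10 genes kept their direction.

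Tfr2, the hepatocyte sensor of transferrin saturation, averaged 9.86 ± 0.29 in liver and 3.90 ± 0.16 in intestine (SD, n = 9 each), a limma difference of 5.93 ± 0.08 (SE). Hamp, at 12.19 ± 0.29 in liver and 2.94 ± 0.70 in intestine, differed by 9.24 ± 0.24. Hamp2 differed by 5.65 ± 0.19. In intestine these 3 genes stayed below the array median on 9 of 9 arrays, so their intestinal values describe a level near the bottom of the scale. They passed the level filter only through the liver arrays, where they were high, so their tissue differences are given without p-values. Slc40a1 was 3.06 ± 0.25 higher in liver (limma adjusted p = 6.58e-10) and Slc46a1 1.33 ± 0.09 higher (limma adjusted p = 6.64e-11). Hephaestin, whose known place is the basolateral side of the enterocyte, averaged 4.41 ± 0.10 in liver and 10.25 ± 0.15 in intestine, a difference of -5.84 ± 0.06 (limma adjusted p = 8.63e-25). Flvcr1 differed by -4.33 ± 0.11 (limma adjusted p = 9.12e-18), Tfrc by -1.35 ± 0.12 (limma adjusted p = 1.69e-09) and Slc11a2 by -1.14 ± 0.08 (limma adjusted p = 1.97e-10). Cybrd1 showed the smallest tissue difference of the 10, -0.54 ± 0.08 (limma adjusted p = 3.42e-06), with levels of 4.12 to 4.55 in liver and 4.52 to 5.12 in intestine that were close to the array medians in both.

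**Figure D1:**
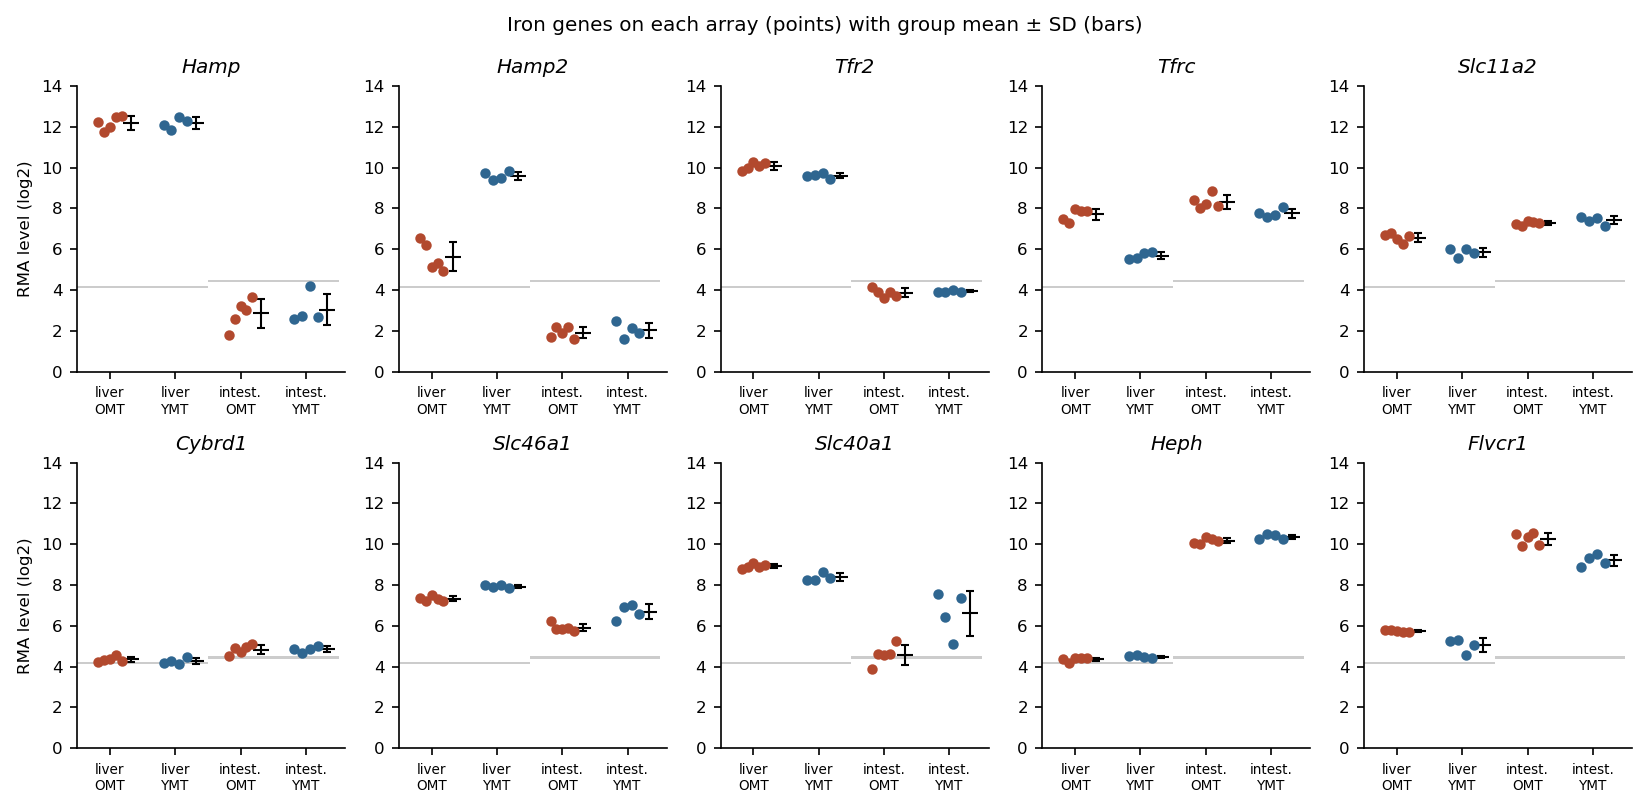
Levels of the 10 genes (log2, vertical axis) on every array, by tissue and donor group, with points for arrays, bars for the group mean ± SD and grey lines for the range of array medians. Hamp2 and Tfrc separate the OMT from the YMT livers, Slc40a1 is spread over 3.87 to 7.54 in intestine, and Hamp does not separate the donor groups.

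Between donor groups, 7 of the 10 genes were called in liver and 3 of the 7 that passed the level filter in intestine. In liver 5 were higher in OMT recipients (Tfrc, Slc40a1, Slc11a2, Flvcr1 and Tfr2) and 2 were lower (Hamp2 and Slc46a1). Over all 13380 liver genes tested, 10.4% were called higher and 8.78% lower. In intestine 1 was higher (Flvcr1) and 2 were lower (Slc46a1 and Slc40a1), and over all 13238 genes tested 1.04% were called higher and 3.1% lower. Nothing is read from these shares, since the genes were chosen with the same comparison in view. The counts of kept calls given below show only how a call depends on the settings.

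Cell type markers were read beside these values. In liver the 6 hepatocyte markers averaged 12.41 to 12.54 on OMT arrays and 12.44 to 12.50 on YMT arrays, and limma called 0 of 6, with 1 higher at an unadjusted p under 0.05. The mean of 6 endothelial markers was 6.79 to 7.02 in OMT livers and 7.30 to 7.60 in YMT livers, and 4 of 6 were called lower. Of 7 macrophage markers 1 was called higher and 2 lower, with array means of 6.69 to 7.06 in OMT and 6.71 to 6.97 in YMT livers. Of 6 erythroid markers 2 were measured and 1, Slc4a1, was tested and not called (limma adjusted p = 0.169), with array means of 4.31 to 4.93 in OMT and 4.36 to 4.53 in YMT livers. In intestine the mean of 5 Paneth and goblet cell markers was 11.57 to 12.10 on OMT arrays and 12.08 to 12.23 on YMT arrays. Of these 5, 1 was called lower, the goblet cell gene Clca1 (difference -0.82 ± 0.16, limma adjusted p = 0.0245), and 3 were lower at an unadjusted p under 0.05. Those 3 were the goblet cell genes of the list, Clca1, Muc2 (-0.44) and Fcgbp (-0.36). The Paneth cell genes Lyz1 and Defa24 differed by 0.10 and 0.06 and were not called. The 5 measured crypt markers, of 6 listed, averaged 6.85 to 7.60 in OMT and 7.22 to 7.90 in YMT intestines, with a median difference of -0.42 and a range of -0.51 to -0.17. By limma 0 of 5 were called, with 1 lower at an unadjusted p under 0.05. The 6 enterocyte markers averaged 11.96 to 12.37 in OMT and 11.15 to 12.27 in YMT intestines, and limma called 0 of 6, with 2 higher at an unadjusted p under 0.05. The part of these cell types in the iron genes' values was not tested in either tissue. In whole tissue, fewer cells of a type and less RNA per cell cannot be told apart.

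Hamp did not separate the donor groups in liver. Its level was 12.23, 11.74, 12.00, 12.49 and 12.52 in OMT livers and 12.09, 11.84, 12.48 and 12.31 in YMT livers. The groups overlapped across almost their whole range, with means of 12.20 ± 0.33 and 12.18 ± 0.28 in OMT and YMT livers (SD, n = 5 and 4) and a difference of 0.02 ± 0.18 (SE). In intestine it lay at 1.78 to 3.67 in OMT and 2.59 to 4.21 in YMT recipients.

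Hamp2 gave the largest difference of the 10 genes. It stood at 6.56, 6.23, 5.12, 5.35 and 4.94 in OMT livers and at 9.72, 9.40, 9.50 and 9.83 in YMT livers. All 5 OMT livers were below all 4 YMT livers, and OMT replicates 1 and 2 were the highest of their group. The difference was -3.97 ± 0.30, a 15.7-fold lower level in OMT livers. With those 2 livers left out it was -4.48. That value had to be larger, because the highest OMT livers were removed, and is no support. In intestine Hamp2 was at 1.62 to 2.19 in OMT and 1.59 to 2.47 in YMT recipients, below the array medians.

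Tfrc, the uptake receptor for transferrin-bound iron, had the largest rise of the 10 genes in liver. Its level was 7.50, 7.31, 7.97, 7.90 and 7.86 in OMT livers and 5.54, 5.57, 5.80 and 5.85 in YMT livers. The groups lay more than 1 unit apart without overlap, and the difference was 2.02 ± 0.14, or 4.05-fold. In intestine Tfrc was at 8.41, 8.00, 8.23, 8.84 and 8.10 in OMT and at 7.78, 7.56, 7.69 and 8.07 in YMT recipients. There the groups overlapped, because YMT replicate 4 exceeded OMT replicate 2, and the difference of 0.54 ± 0.17 was not called. Ordered by mean, OMT intestine was highest, then YMT intestine, then OMT liver and last YMT liver. The ranges of YMT intestine, at 7.56 to 8.07, and OMT liver, at 7.31 to 7.97, overlapped.

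Tfr2 was at 9.83, 9.96, 10.26, 10.08 and 10.24 in OMT livers and at 9.59, 9.62, 9.74 and 9.45 in YMT livers. The lowest OMT liver was above the highest YMT liver, by a narrow gap, and the difference was 0.47 ± 0.10. In intestine Tfr2 had 3.61 to 4.17 in OMT and 3.91 to 4.02 in YMT recipients.

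Slc11a2, the DMT1 transporter that carries ferrous iron across the apical membrane and out of endosomes, was at 6.70, 6.80, 6.52, 6.24 and 6.63 in OMT livers and at 6.03, 5.56, 6.01 and 5.81 in YMT livers. The liver groups did not overlap, and the difference was 0.73 ± 0.13. In intestine its levels of 7.25, 7.16, 7.40, 7.33 and 7.28 in OMT recipients fell inside the 7.60, 7.41, 7.52 and 7.14 of YMT recipients, a difference of -0.13 ± 0.10. Cybrd1, the reductase that prepares ferric iron for DMT1, differed by 0.09 ± 0.09 in liver and -0.02 ± 0.12 in intestine. Neither was called, and the groups overlapped in both tissues.

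Slc46a1, the proton-coupled folate transporter that was first described as a heme carrier, was lower in OMT recipients of both tissues. In liver it was at 7.36, 7.24, 7.50, 7.30 and 7.23 in OMT and at 7.98, 7.90, 7.99 and 7.83 in YMT recipients, without overlap, a difference of -0.60 ± 0.08. In intestine it was at 6.23, 5.83, 5.84, 5.89 and 5.76 in OMT and at 6.23, 6.94, 7.01 and 6.58 in YMT recipients. Replicate 1 of each group had the same value there, and the difference was -0.78 ± 0.16. That intestinal call held in 12 of 20 alternative settings and in 3 of the 9 fits with 1 array left out, at -0.93 to -0.67. It was kept without OMT replicate 1 (-0.86), OMT replicate 4 (-0.77) or YMT replicate 1 (-0.93), and lost without any 1 of the other 6 arrays.

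Slc40a1, ferroportin, went in opposite directions in the tissues. In liver it was at 8.79, 8.90, 9.09, 8.90 and 9.0 in OMT and at 8.25, 8.26, 8.66 and 8.34 in YMT recipients. The liver groups did not overlap, and the difference was 0.56 ± 0.10. In intestine it was at 3.87, 4.63, 4.58, 4.63 and 5.25 in OMT and at 7.54, 6.44, 5.09 and 7.35 in YMT recipients. YMT replicate 3 lay below OMT replicate 5, and the YMT intestines alone spanned more than 2 units. The intestinal difference was -2.01 ± 0.46, and OMT intestines were near the array medians of 4.42 to 4.51.

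The intestinal Slc40a1 call rested on most of the arrays being present. It held in 8 of 19 alternative settings. With 1 array left out it was kept in 2 of 9 fits, without OMT replicate 5 (-2.18) and without YMT replicate 3 (-2.52), and the 9 values ran from -2.52 to -1.70. The arrays with the most Slc40a1 were also those with the most Slc10a2, the ileal bile acid transporter, within each donor group. Other distal markers did not all share this order. In OMT intestines Fabp6 was highest in replicate 2, at 12.79 against 12.46 in replicate 5, which had the most Slc40a1. The mean of the 6 distal markers was also highest in OMT replicate 2 (10.18, against 9.86 in replicate 5). In YMT intestines Fabp6 and that mean were highest in replicate 1, as was Slc40a1. Slc10a2 was at 7.08, 9.09, 8.54, 8.91 and 10.41 in OMT and at 10.85, 9.68, 9.08 and 10.30 in YMT intestines, a difference of -1.17 ± 0.58 that was not called (limma adjusted p = 0.254). Lactase (Lct), a brush border enzyme known to be high in jejunum, was lowest on the array with the most Slc40a1 in each group. It stood at 11.29, 10.73, 11.28, 11.21 and 9.29 in OMT and at 7.82, 10.76, 11.26 and 9.99 in YMT intestines (difference 0.80 ± 0.66, limma adjusted p = 0.494). Slc10a2 and Lct were picked after their values were seen.

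Pairs of arrays alike in Slc10a2 were not equally far apart in ferroportin. OMT replicate 2 and YMT replicate 3, the most alike pair at 9.09 and 9.08 of Slc10a2, had Slc40a1 at 4.63 and 5.09. OMT replicate 5 and YMT replicate 4, at 10.41 and 10.30 of Slc10a2, had Slc40a1 at 5.25 and 7.35. The mean of the 6 distal markers was 9.33 to 10.18 in OMT and 9.78 to 10.53 in YMT intestines, and that of the 5 proximal markers 5.97 to 6.34 and 5.65 to 6.14 in OMT and YMT intestines, with 0 of 6 and 0 of 5 called by limma. At an unadjusted p under 0.05, 0 of the distal and 2 of the proximal markers would pass, both higher in OMT intestines. With the distal mean as a covariate the Slc40a1 difference was -1.58, and with the proximal mean -1.31, and neither was called. The part of gut segment in the Slc40a1 difference was not tested. With the segment not stated, it cannot be told apart from the donor group here. Heph, the ferroxidase that works beside ferroportin, had 10.03 to 10.35 in OMT and 10.25 to 10.48 in YMT intestines, a difference of -0.19 ± 0.09 that was not called. In liver Heph lay at 4.20 to 4.40 in OMT and 4.40 to 4.55 in YMT recipients, near the array medians, with a difference of -0.12 ± 0.07.

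**Figure D2:**
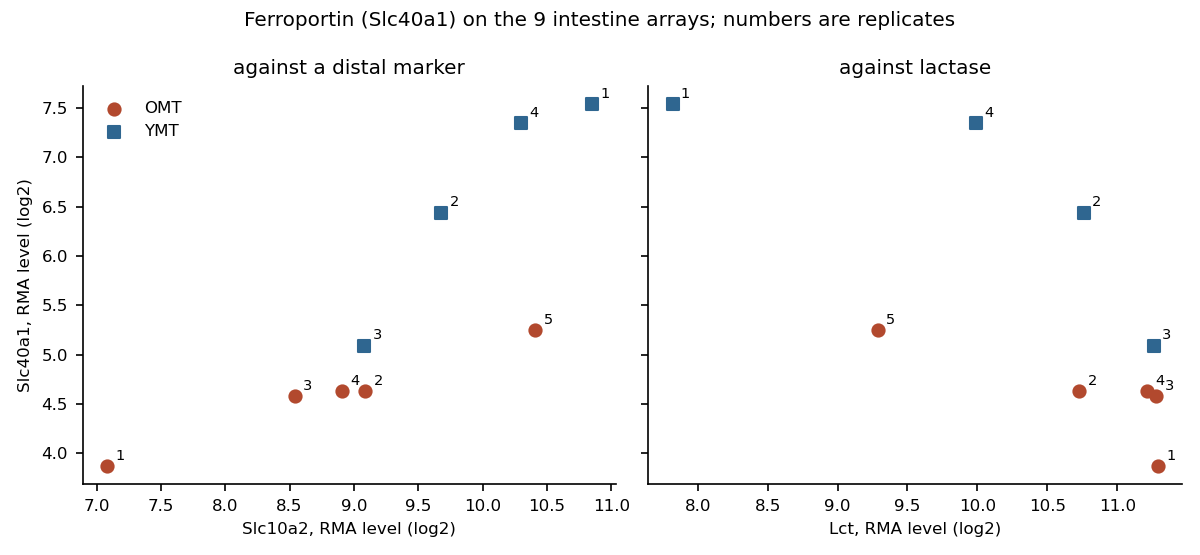
Slc40a1 (log2, vertical axis) against Slc10a2 and against Lct (log2, horizontal axes) on the 9 intestine arrays, OMT as circles and YMT as squares with replicate numbers. OMT replicate 2 and YMT replicate 3, at 9.09 and 9.08 of Slc10a2, lie close in Slc40a1 at 4.63 and 5.09, while OMT replicate 5 and YMT replicate 4, at 10.41 and 10.30, lie at 5.25 and 7.35.

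Flvcr1, known as a heme exporter and as a choline transporter, was higher in OMT recipients of both tissues. In liver it was at 5.79, 5.80, 5.74, 5.72 and 5.70 in OMT and at 5.25, 5.33, 4.56 and 5.06 in YMT recipients. OMT livers were nearly equal, all YMT livers lay below them, and the difference was 0.70 ± 0.14. In intestine it was at 10.48, 9.90, 10.36, 10.57 and 9.96 in OMT and at 8.90, 9.33, 9.51 and 9.07 in YMT recipients. The groups did not overlap there either, and the difference was 1.05 ± 0.17, or 2.07-fold. Flvcr1 was called in 20 of 20 alternative settings in intestine and in 19 of 19 in liver. These are refits of the arrays on which the gene was chosen, so the counts are no independent support.

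**Figure D3:**
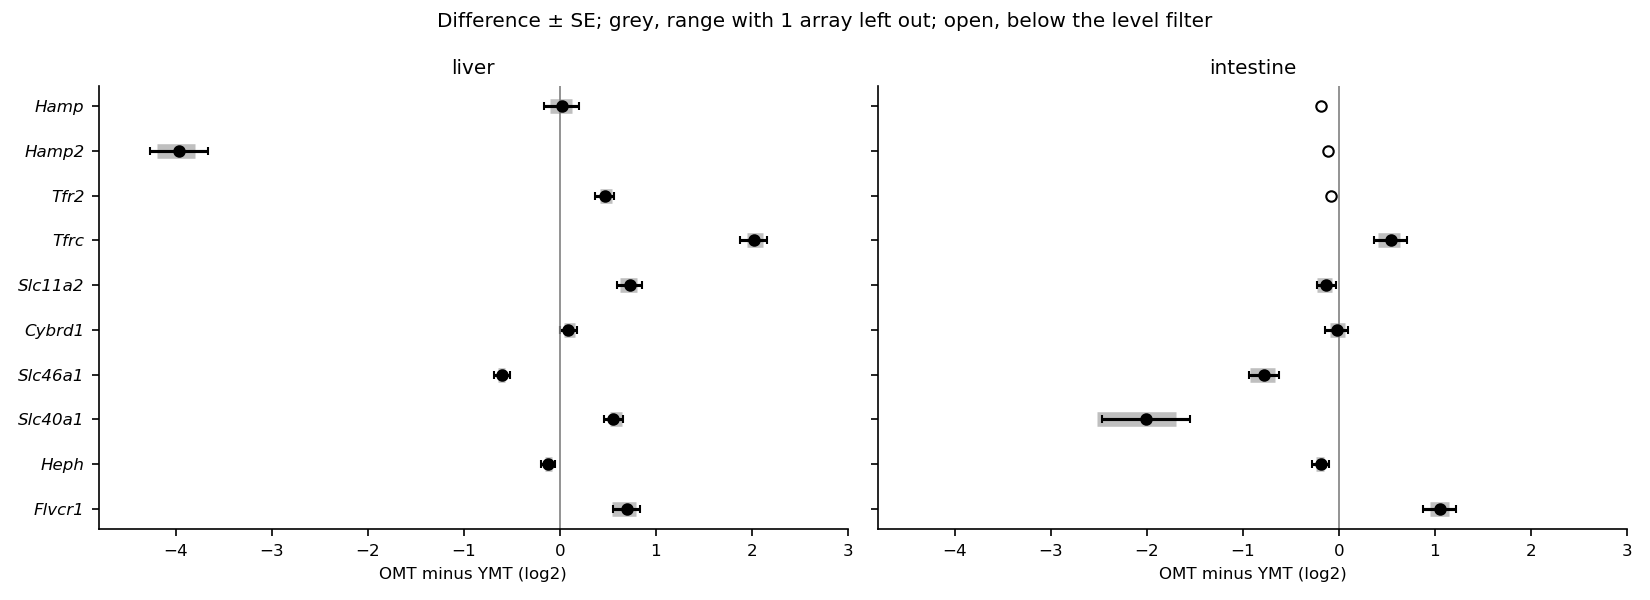
Difference of OMT minus YMT (log2, horizontal axis) for each gene in liver and in intestine, with points for the estimate, bars for ± SE, grey bands for the range with 1 array left out, and open points for genes below the level filter. Hamp2 stands at -3.97 in liver, Slc40a1 at 0.56 in liver and -2.01 in intestine, and Flvcr1 above 0 in both.

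The donor difference in liver minus that in intestine was called for 5 of the 10 genes, against 10.9% of the 14747 genes tested, a share that again is only given. It was -3.86 ± 0.38 for Hamp2, 1.48 ± 0.23 for Tfrc, 2.57 ± 0.49 for Slc40a1, 0.86 ± 0.17 for Slc11a2 and 0.55 ± 0.15 for Tfr2. For Hamp2 and Tfr2 the intestinal term comes from levels below the array medians. Slc46a1 and Flvcr1, which moved the same way in both tissues, had differences of 0.18 ± 0.18 and -0.35 ± 0.23 that were not called. Hamp, Heph and Cybrd1 were not called either, at 0.21 ± 0.48, 0.07 ± 0.11 and 0.11 ± 0.16.

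For 4 of the genes the profiles most alike were looked up, by the smallest root mean square (RMS) difference over the 9 arrays of a tissue after each gene's mean was removed. For Hamp2 in liver they were the steroid dehydrogenase Hsd3b5 (RMS difference 0.444, against an RMS of 2.03 for Hamp2 about its own mean), the lipogenic regulator Thrsp (0.599) and the organic anion transporter Slco1a1 (0.693). Hsd3b5 averaged 4.23 ± 0.60 in OMT and 8.25 ± 0.58 in YMT livers, and Slco1a1 5.07 ± 0.30 in OMT and 9.63 ± 0.10 in YMT livers. Hamp in liver was most like Spa17 (0.125), Rnase2b (0.129) and Mir30c-2 (0.171), with an RMS of only 0.273 about its own mean. Slc40a1 in intestine was most like the Wnt secretion factor Wls (0.460), the fatty acid desaturase Scd1 (0.485) and Trp53i11 (0.503), with 1.23 about its own mean. Scd1 averaged 4.99 ± 0.41 in OMT and 6.99 ± 0.96 in YMT intestines. Tfrc in intestine was most like the pyrophosphatase Ppa1 (0.117), Vkorc1l1 (0.137) and Pros1 (0.153), with 0.369 about its own mean. These are descriptions over 9 arrays that share the donor groups.

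Of 72 other genes listed for the pathway, 69 had a probe set of a single symbol. In liver 19 of 68 tested (27.9%) were called higher in OMT recipients and 7 (10.3%) lower, with a median difference of 0.10 against 0.00 over all genes. In intestine 3 of 64 (4.69%) were called higher and 0 lower by limma, with a median of -0.06 against -0.02. At an unadjusted p under 0.05 these would be 5 higher and 11 lower. The background shares are those given above for each tissue. The lists were chosen with earlier results of these data known. Nothing is therefore read from their shares, and the adjusted p-values of listed genes below are a description.

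Of the genes that control hepcidin, 4 of 26 were called higher in liver and 1 lower. Fgl1, a liver-secreted inhibitor of BMP signalling to hepcidin, averaged 11.07 ± 0.24 in OMT and 9.26 ± 0.10 in YMT livers, a rise of 1.81 ± 0.12 (limma adjusted p = 8.92e-06). Creb3l3, a stress-activated inducer of Hamp, rose by 0.41 ± 0.13 (limma adjusted p = 0.0424). The interleukin 6 receptor gene Il6ra rose by 0.65 ± 0.20 (limma adjusted p = 0.0434) and Stat3 was the other gene called higher. Tmprss6, the protease that represses hepcidin by cleaving hemojuvelin, fell by 0.31 in OMT livers (SE 0.09, limma adjusted p = 0.0281). Bmp6, the endothelial ligand that induces Hamp, differed by -0.07 ± 0.07, and the BMP target genes Id1 and Smad7 by 0.15 ± 0.15 and 0.03 ± 0.14, none of them called. Hemojuvelin (Hjv) differed by 0.39 ± 0.18 (limma adjusted p = 0.161). With 1 liver array left out, the Fgl1 call was kept in 9 of 9 fits, and those of Creb3l3, Il6ra, Stat3 and Tmprss6 in 3, 3, 2 and 4. In intestine 1 of 24 was called, Cebpa, higher by 0.55 ± 0.13 (limma adjusted p = 0.0457) and called in 2 of 9 fits with 1 array left out, while Bmp6, Id1, Smad7, Hjv, Tmprss6 and Creb3l3 were not called, at -0.11, -0.18, -0.16, -0.10, 0.10 and 0.66.

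Of the storage and sensing genes in liver 2 of 7 were called higher and 1 lower. Ireb2, an iron regulatory protein that binds Tfrc messenger RNA, fell by 0.56 in OMT livers (SE 0.10, limma adjusted p = 0.00321). Ncoa4, the receptor for ferritin breakdown, rose by 0.35 ± 0.07 (limma adjusted p = 0.00642) and the iron chaperone gene Pcbp1 by 0.29 ± 0.07 (limma adjusted p = 0.0169). The ferritin heavy chain gene Fth1 differed by 0.15 ± 0.07 in liver and -0.22 ± 0.08 in intestine and was not called in either. By limma 0 of these 7 genes were called in intestine, with 2 higher and 1 lower at an unadjusted p under 0.05, at differences of -0.22 to 0.36.

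In liver 7 of 17 carriers and transporters were called higher and 2 lower. Lcn2, a siderophore-binding protein of the acute phase, averaged 8.11 ± 0.70 in OMT and 5.62 ± 0.24 in YMT livers, a rise of 2.49 ± 0.30 (limma adjusted p = 0.000357). Haptoglobin (Hp), which binds free hemoglobin, rose by 0.73 ± 0.06 (limma adjusted p = 5.4e-05), and Slc39a14, a transporter of iron not bound to transferrin, by 0.63 ± 0.10 (limma adjusted p = 0.00191). Mcoln1, a lysosomal cation channel, fell by 0.39 (SE 0.07, limma adjusted p = 0.0044). Among 11 heme genes 4 were called higher and 1 lower in liver. The heme-degrading enzyme gene Hmox1 rose by 0.97 ± 0.12 (limma adjusted p = 0.000375), and Alas1, the first enzyme of heme synthesis, by 1.35 ± 0.34 (limma adjusted p = 0.0189), with Cpox and Blvrb the other genes called higher. With 1 array left out the calls of Alas1 and Blvrb were kept in 8 and 5 of 9 fits. In intestine 1 of 15 carriers was called, Flvcr2, the relative of Flvcr1, at 7.76 ± 0.23 in OMT and 6.13 ± 0.53 in YMT recipients, a rise of 1.62 ± 0.22 (limma adjusted p = 0.00598). There it was called in 20 of 20 alternative settings. Flvcr2 was among the genes called higher in liver too, by 0.33 ± 0.10 (limma adjusted p = 0.0424), and held in 7 of 18 alternative settings. In intestine limma called 0 of 11 heme genes, with 3 lower at an unadjusted p under 0.05, and Hmox1 differed by -0.22 ± 0.17.

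Hypoxia sensing genes moved both ways in liver, where 2 of 7 were called higher (Arnt and Egln1) and 2 lower (Hif1a and Vhl). Those of Egln1, Hif1a and Vhl were kept in 2, 5 and 1 of 9 fits with 1 array left out. In intestine 1 of 7 was called, the oxygen sensor Egln1, higher by 0.43 ± 0.09 (limma adjusted p = 0.0284), and called in 4 of 9 fits with 1 array left out. Epas1, which encodes HIF-2alpha, the known activator of Slc11a2, Cybrd1 and Slc40a1 in enterocytes, differed by -0.16 ± 0.08 in liver and by 0.56 ± 0.26 in intestine (limma adjusted p = 0.185 and 0.228).

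**Figure D4:**
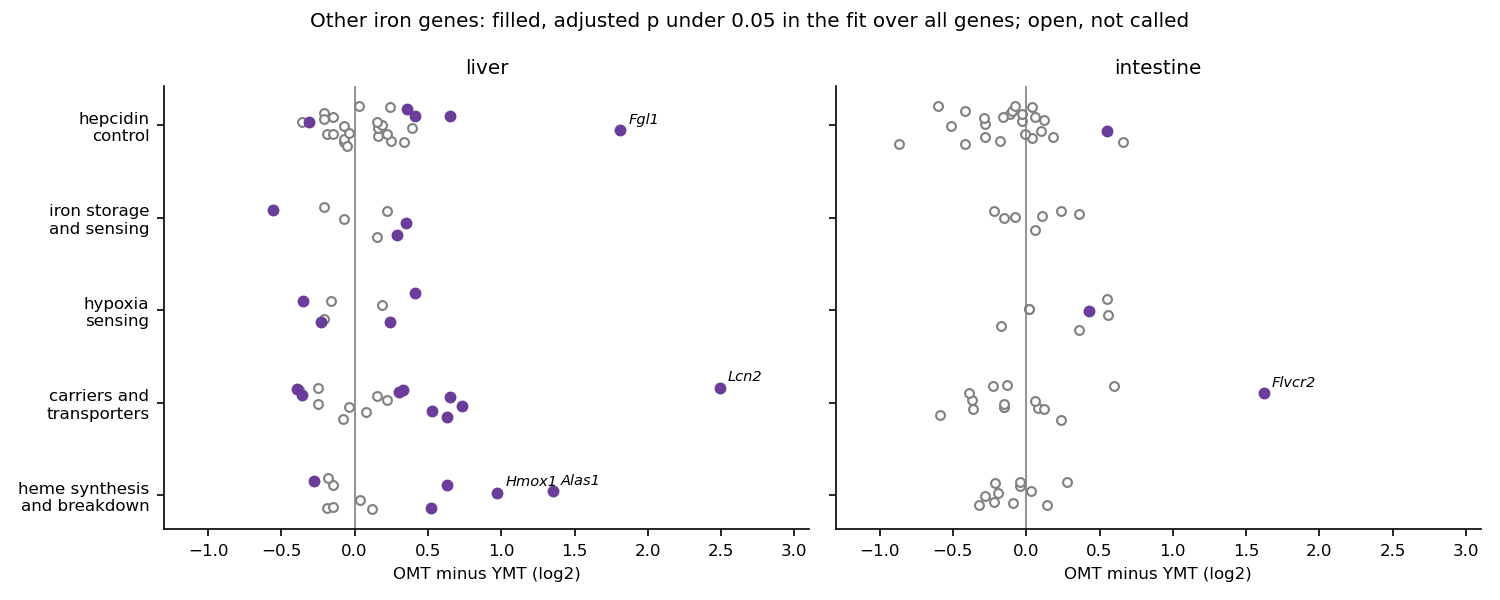
Difference of OMT minus YMT (log2, horizontal axis) for the other iron genes in liver and in intestine, by list, with filled points for an adjusted p under 0.05 and open points for the rest. Lcn2 at 2.49 and Fgl1 at 1.81 lie farthest right in liver, and Flvcr2 at 1.62 in intestine.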

How the data were processed

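Gene expression was measured on Affymetrix whole-transcript arrays from 250 ng of total RNA per sample, per the labels' protocols. The deposited values are log2 levels. Per the submitters' processing notes, the authors used RMA and Affymetrix Expression Console, with no versions given. The log base was taken as 2 from the values. RMA is known to shrink differences of dim probe sets. Of 41345 probe sets, 23521 had 1 symbol, and a gene was read by its probe set of highest mean.

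Samples were grouped by title. OMT and YMT were compared within each tissue with limma 3.58.1 (R 4.3.3, lmFit and eBayes, two-sided), and all 18 arrays in 4 groups gave the tissue contrast and the difference between tissues. Genes had to exceed the array's median on at least 4 arrays. P-values within a tissue measure the spread between recipients, and precision is limited by the number of arrays. Those over all 18 arrays treat liver and intestine arrays as independent, though the labels do not state whether they share animals. Shared donors or cages are not covered by any of these p-values. The fit was run on simulated data with independent noise for each gene and no donor, cage or segment effects. That run checks the working of the fit only and is no support for the calls here. Named genes were the 10 genes, 11 further pathway genes whatever their values (Ftl1 and Trf are unnamed here), up to 4 called genes of smallest p per list and tissue, and the 3 most alike profiles for 4 genes. The members and lists were chosen with earlier results of these data known. Alternatives covered filters, scaling, probe set choice, array weights, a replicate block and left-out arrays. In liver, OMT replicates 1 and 2 were also left out together. Intestinal region markers as covariates were added after seeing the data. Figures were drawn with matplotlib 3.10.9.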

Additional observations from a re-analysis of the deposited data

Results flagged for a closer look

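Of 148 groups of 4 or 5 arrays examined for the named iron genes, 14 held an array far from the others by Dixon's criterion, where chance flags about 1 in 20 groups. In liver these were Heph in OMT replicate 2 (lowest, 4.20), Mcoln1 in OMT replicate 2 (highest, 7.37) and Smad7 in OMT replicate 5 (highest, 6.10). In OMT intestines they were Slc46a1 in replicate 1 (highest, 6.23), Bmp6 in replicate 4 (lowest, 4.36) and Hjv in replicate 3 (lowest, 4.66). YMT intestine replicate 3 was highest for Hamp (4.21), Tfr2 (4.02), Bmp6 (5.02), Hjv (5.11) and Hmox1 (4.80). YMT intestine replicate 1 was highest for Cebpa (6.92) and lowest for Slc39a14 (7.59) and Tmprss6 (4.09). Hamp and Tfr2 were below the array medians in those intestines. Near the medians of 4.39 to 4.51 were also Bmp6 (4.75 to 5.02), Hjv (4.84 to 5.11), Hmox1 (4.65 to 4.80) and Tmprss6 (4.09 to 4.53) in YMT intestines. For Hjv and Hmox1 the other YMT arrays read the same value, 4.84 and 4.65. With such dim or tied values the rate of 1 in 20 need not hold.

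The difference of OMT minus YMT was unequal in liver and intestine for 5 of the 10 iron genes, as liver minus intestine: Hamp2 by -3.86, Tfrc by 1.48, Tfr2 by 0.55, Slc40a1 by 2.57 and Slc11a2 by 0.86. The calls held in 26 of 26 alternative settings for Hamp2, Tfrc, Slc40a1 and Slc11a2, and in 23 of 26 for Tfr2. The Tfr2 call was lost under the replicate block (0.55), without liver OMT replicate 5 (0.51) and without liver YMT replicate 4 (0.50). This contrast is built from the donor differences on which the genes were chosen, so these counts are no independent support. For Hamp2 and Tfr2 its intestinal term comes from levels below the array medians.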

How the results depend on the processing

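The iron genes were chosen on the same comparison of donor groups, so kept calls are no independent support for them. In liver the 7 called iron genes stayed called in every alternative run, except Slc40a1 with all 18 arrays in the fit (0.56). In intestine Flvcr1 stayed called in 20 of 20. Intestinal Slc40a1 lost its call with no filter (-2.01), with the replicate block (-2.18), with both marker covariates and in 7 of 9 fits with 1 array left out, and it had no value under the stricter filter. Intestinal Slc46a1 lost it with quantile normalization (-0.70), the replicate block (-0.74) and in 6 of 9 left-out fits. Intestinal Tfrc gained a call with array weights (0.59), the replicate block (0.59) and all 18 arrays (0.54). All 10 tissue differences were called in every alternative run, where those of Hamp, Hamp2 and Tfr2 are only a description, as said above. Small uncalled differences changed sign: Cybrd1 in intestine with array weights (0.06), distal (0.03) and proximal (0.09) covariates, and at -0.09 to 0.06 with 1 array left out; Hamp in liver with median centring (-0.01) and the replicate block (-0.07), and at -0.10 to 0.13; Hamp between tissues with array weights (-0.02), and at -0.18 to 0.41.

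The 548 genes called in intestine became 310 with no filter, 1172 with array weights, 1445 with all 18 arrays, 197 and 132 with the distal and proximal covariates, and 147 to 636 with 1 array left out: 228 and 275 without OMT replicates 2 and 3, and 283, 147 and 236 without YMT replicates 1, 2 and 4. The 3 intestinal pathway calls became 1 with median centring, the replicate block or the distal covariate, 8 with array weights, 10 with all 18 arrays, and 1 to 4 with 1 array left out (1 without OMT replicates 1, 3 or 5 or YMT replicates 2 or 3). The 2563 liver calls became 1459 under the replicate block and 1790 to 2685 with 1 array left out, and the 26 liver pathway calls 12 and 15 to 24 (16, 15 and 16 without OMT replicate 5, YMT replicate 1 and YMT replicate 2). The 12124 tissue calls became 7737 under the stricter filter, which tests 8872 genes. The 1604 calls between tissues ran from 1100 to 1884 with 1 array left out. Within a tissue the replicate block pairs OMT with YMT arrays by number, a pairing that the labels do not state. OMT replicate 5 has no partner and drops out of that difference. The block and the fit without this array thus gave the same intestinal differences, as for Slc40a1 (-2.18) and Heph (-0.19). The cause of the shifts was not tested. The share of calls that were higher moved with scaling: in intestine 25.2% (138 of 548), 17.4% after centring and 40.1% after quantile normalization; in liver 54.2% (1388 of 2563), and 47.5% after centring (1125 higher, 1242 lower), where lower calls became the majority; between tissues 63.4%, and 51.7% after it; for liver minus intestine 31.5%, 49.8% after centring and 52.2% after quantile normalization.

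Among pathway genes, calls for Fgl1, Hp, Lcn2, Hmox1, Slc39a14, Ireb2, Mcoln1, Cpox and Arnt in liver and Flvcr2 in intestine held in every alternative run. Others did not: Stat3 held in 7 of 19, Creb3l3 in 9, Il6ra in 11, Tmprss6 in 12, Hif1a in 13, Blvrb in 14 and Alas1 in 16 of 19, Egln1 in 7 of 19 and Vhl in 5 of 18 in liver, and Cebpa in 9 and Egln1 in 11 of 20 in intestine. Pairing by replicate number was checked in the deviations from group means. Same-numbered OMT and YMT arrays correlated at -0.065 to 0.302 in intestine (median 0.122) and -0.171 to 0.085 in liver (median -0.026). Other numbers gave medians of -0.084 and 0.016. Between liver and intestine, same numbers gave -0.039 to 0.058 in OMT and 0.008 to 0.129 in YMT recipients. Other numbers there gave -0.083 to 0.121 and -0.111 to 0.084. The labels do not state whether same-numbered livers and intestines share an animal. Heph and Cybrd1 in liver lay near the array medians, and signal over background was not measured for them here.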
